A study of Mus musculus with 12 samples.

Results

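Genes of glycolysis, lactate export and the transcriptional response to low oxygen were followed in mouse leukaemia cells treated with ruxolitinib, GSK-LSD1 or both. The set was a list of 39 gene symbols, and a member was tested where its mean normalised read count over the 12 libraries was at least 10. All 39 symbols stood in the table of 24411 symbols. With this minimum, 36 members were among the 11484 genes tested. The 3 members below it were Eno1, P4ha2 and Ldhb, with means over 12 libraries of 0.0833, 0.415 and 0.832. The lowest member above it was Ankrd37, at 14.4.

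The cells were CEBPA/CSF3R leukemia cells: BALB/c mouse bone marrow given mutant CSF3R, the receptor for granulocyte colony-stimulating factor, and mutant CEBPA, a myeloid transcription factor, by retrovirus. All 4 groups carried both mutant genes, so no group shows the cells without them. Cultures received DMSO (the solvent), 50 nM Ruxolitinib, which blocks the JAK1 and JAK2 kinases downstream of CSF3R, or 2 nM GSK-LSD1, which blocks the histone demethylase LSD1, or both drugs at these doses (the combination), in each case for 24 h. Each group had 3 libraries of total RNA. Whether the replicates came from separate cultures, and whether the line is a single clone, is not given in the sources used here. P-values therefore measure the spread between these libraries, which may be technical.

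Glycolysis converts glucose to pyruvate in the cytosol. Glucose enters through SLC2A (GLUT) carriers, hexokinases trap it as glucose 6-phosphate, phosphofructokinase commits it to breakdown, and lactate dehydrogenase turns pyruvate into lactate, which SLC16A carriers export. HIF-1, a pair of the proteins HIF1A and ARNT, binds DNA at hypoxia response elements and raises many of these genes when oxygen is low. When oxygen is present, prolyl hydroxylases encoded by the Egln genes mark HIF1A for breakdown, so the mRNA level of Hif1a does not measure the activity of the factor.

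Library sizes were close: the sum of the multiples of the smallest step in a library, which are reads if the step is 1 read, ran from 8260995 to 8528400. On the first 2 principal components, which held 54.7% and 11.1% of the variance, ruxolitinib replicate 2 and combination replicate 3 stood apart from their groups on the second component, and calls that change without both are given below. All 9 myeloid progenitor markers of the labelled cells passed the minimum. Of the erythroid markers 5 of 9 did, with the 4 globin genes at 0 in all 12 libraries. Of the lymphocyte markers 1 of 7 did, with Ms4a1 at 0, and of the stromal and endothelial markers 3 of 7, with Cdh5 and Cxcl12 at 0. The summed level of 10 neutrophil maturation markers was 6419 to 7874 in DMSO, 6754 to 8495 with ruxolitinib, 11343 to 12967 with GSK-LSD1 and 17837 to 19706 with the combination. The summed level of 9 monocyte and macrophage markers was 3778 to 3957, 4091 to 4370, 6433 to 6514 and 7804 to 8602 in the same order. Other marker sums differed too: the 9 myeloid progenitor markers summed to 22788 to 23735 in DMSO, 26750 to 33079 with ruxolitinib, 22464 to 23582 with GSK-LSD1 and 28983 to 33771 with the combination. In the same order the 9 erythroid markers summed to 802 to 910, 913 to 1044, 672 to 710 and 695 to 878, and the 7 stromal and endothelial markers to 3229 to 3351, 3196 to 3643, 4044 to 4318 and 4329 to 4378. The 7 lymphocyte markers summed to 154 to 178, 182 to 184, 176 to 223 and 209 to 218. Such sums follow their most abundant genes and can hide opposite changes. From DMSO to GSK-LSD1, the mean of the progenitor marker Prtn3 went from 2097 to 1264 and that of Ptprc from 1333 to 1872. Among the neutrophil markers Mmp8 went from 2074 to 5405, S100a9 from 2940 to 4054 and Ngp from 51.1 to 38.6. Of the stromal and endothelial sum, Pecam1 alone made up 2992 in DMSO and 3602 with GSK-LSD1. The part of the marker sums in the results below was not tested. In such bulk RNA, fewer cells of a type and less RNA per cell cannot be told apart. Kdm1a, which encodes LSD1, had a mean of 1334 ± 30.7 (SD, n = 3) in DMSO, and Jak1 and Jak2 had 1921 ± 68.3 and 1514 ± 14.4, so the mRNAs of the drug targets were present.

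Some glycolytic enzymes are known for large families of processed pseudogenes, and for these the table has to be read with care. In the GENCODE vM21 annotation of GRCm38, 17 of the 39 members shared no 50-base window of their transcript with another gene, and 5 shared more than 40% of them: Gapdh (82.5%, with 222 other genes, of which 213 are processed pseudogenes), Eno1 (72.2%), Pgk1 (68.0%), Bnip3 (62.5%) and Pgam1 (41.5%). The stretch below is the window of the Gapdh coding sequence that runs from base 415 to base 464 and is shown because 84 other annotated genes hold the same 50 bases. All 950 windows of that coding sequence were found in some other gene.
Gapdh: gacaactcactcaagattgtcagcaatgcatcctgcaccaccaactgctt

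Gapdh, which encodes the dehydrogenase in the middle of the pathway and is usually among the most abundant mRNAs of a cell, had a normalised read count of only 39.8 ± 14.7 (SD, n = 3) in DMSO. Eno1, the main enolase gene, was listed at 0 in 11 of the 12 libraries, while the intronless copy Eno1b had a mean of 447 ± 54.3 in DMSO. How the authors' counting treated reads that match several genes is not given in the sources used here. The values of Gapdh, Eno1, Pgk1, Pgam1 and Bnip3 are therefore uncertain as levels of those genes. In addition, 16 of the 36 tested members overlap an annotated gene on the other strand, Hk3, Pfkp, Hif1a, Bnip3, Ankrd37 and Ndrg1 among them, and the strandedness of the libraries is not given.

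**Figure D1:**
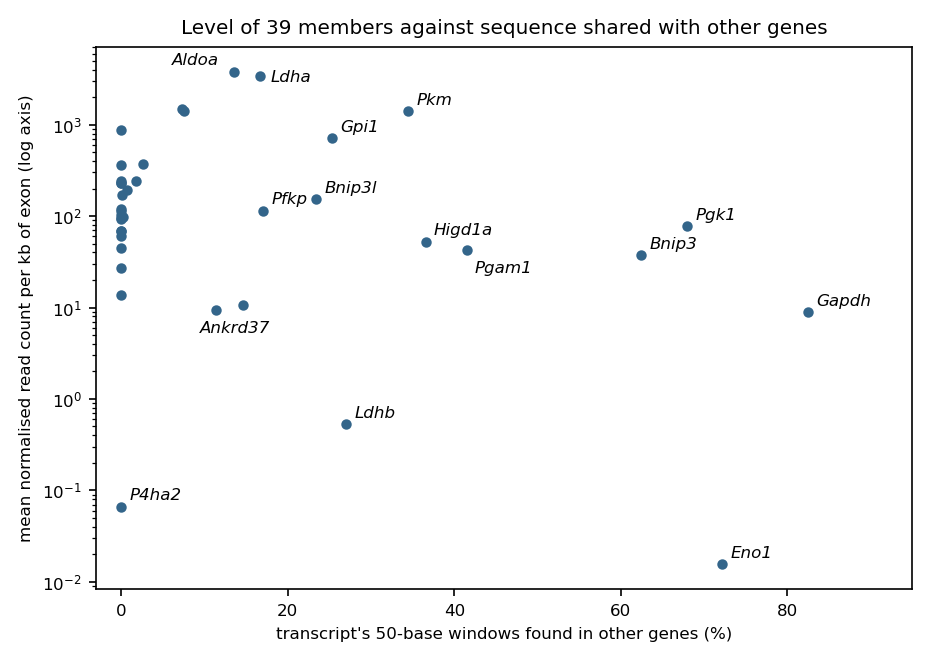
Mean normalised read count per kb of exon over 12 libraries (y, log axis) against the share of a transcript's 50-base windows found in other genes (x, %), 1 point for each of the 39 members. Gapdh (82.5% shared) lies at 8.84 per kb and Eno1 (72.2%) at 0.0155, while Aldoa (13.5%) and Ldha (16.7%) lie at 3800 and 3405.

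Per kb of exon, a rough scale for setting levels of different genes side by side, isozymes of the same step or carrier family differed. In DMSO, Ldha, the lactate dehydrogenase subunit that favours lactate formation, stood at 4087 per kb and Ldhb at 0.21. Aldoa stood at 3975 and Aldoc at 21.7. Among the hexokinases Hk1 had 344, Hk2 278 and Hk3 73 per kb, and among the phosphofructokinase subunits Pfkl had 203, Pfkp 141 and Pfkm 64.2. The monocarboxylate carrier gene Slc16a1 had 486 and Slc16a3 128, and the glucose carriers Slc2a1 and Slc2a3 had 286 and 106. With the combination Hk3 reached 179 per kb, beside 216 for Hk2 and 385 for Hk1. These levels use all annotated exons of a gene, which can exceed the length of its transcripts, and were not tested between genes. Pfkp had 13.401 kb of exon and 4096 windows of 50 bases in its longest coding transcript, and Pfkl had 6.675 kb and 3681. The order of isozymes with close levels, such as Pfkl and Pfkp, therefore depends on this choice of length.

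The 3 comparisons with DMSO asked which members each treatment changed. After ruxolitinib 1 member was higher and 7 were lower with an adjusted p under 0.05 (limma, Benjamini-Hochberg over all genes tested), where 1.00% of all genes tested were higher and 0.627% lower (1.63% in all). The median log2 fold change was -0.20 over the 36 members, beside a median of -0.01 or nearer to 0 over all genes in each of the 3 comparisons. After GSK-LSD1 5 members were higher and 11 lower, against 17.0% and 15.5% of all genes (32.5% in all), and the median was -0.11. After the combination 5 were higher and 16 lower, against 20.5% and 21.8% of all genes (42.3% in all), and the median was -0.24. In all, 22.2%, 44.4% and 58.3% of the members passed after ruxolitinib, GSK-LSD1 and the combination. The lower share lay above the background in the 3 comparisons. After ruxolitinib the lower count ranged from 0 to 15 with 1 library left out. On 5 members each, the higher share was near the background after GSK-LSD1 and below it after the combination. The 3 comparisons use the same DMSO libraries. Among the 23 tested members that share at most 10% of their windows, the counts were 1 higher and 6 lower after ruxolitinib, 5 and 8 after GSK-LSD1, and 5 and 12 after the combination.

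**Figure D2:**
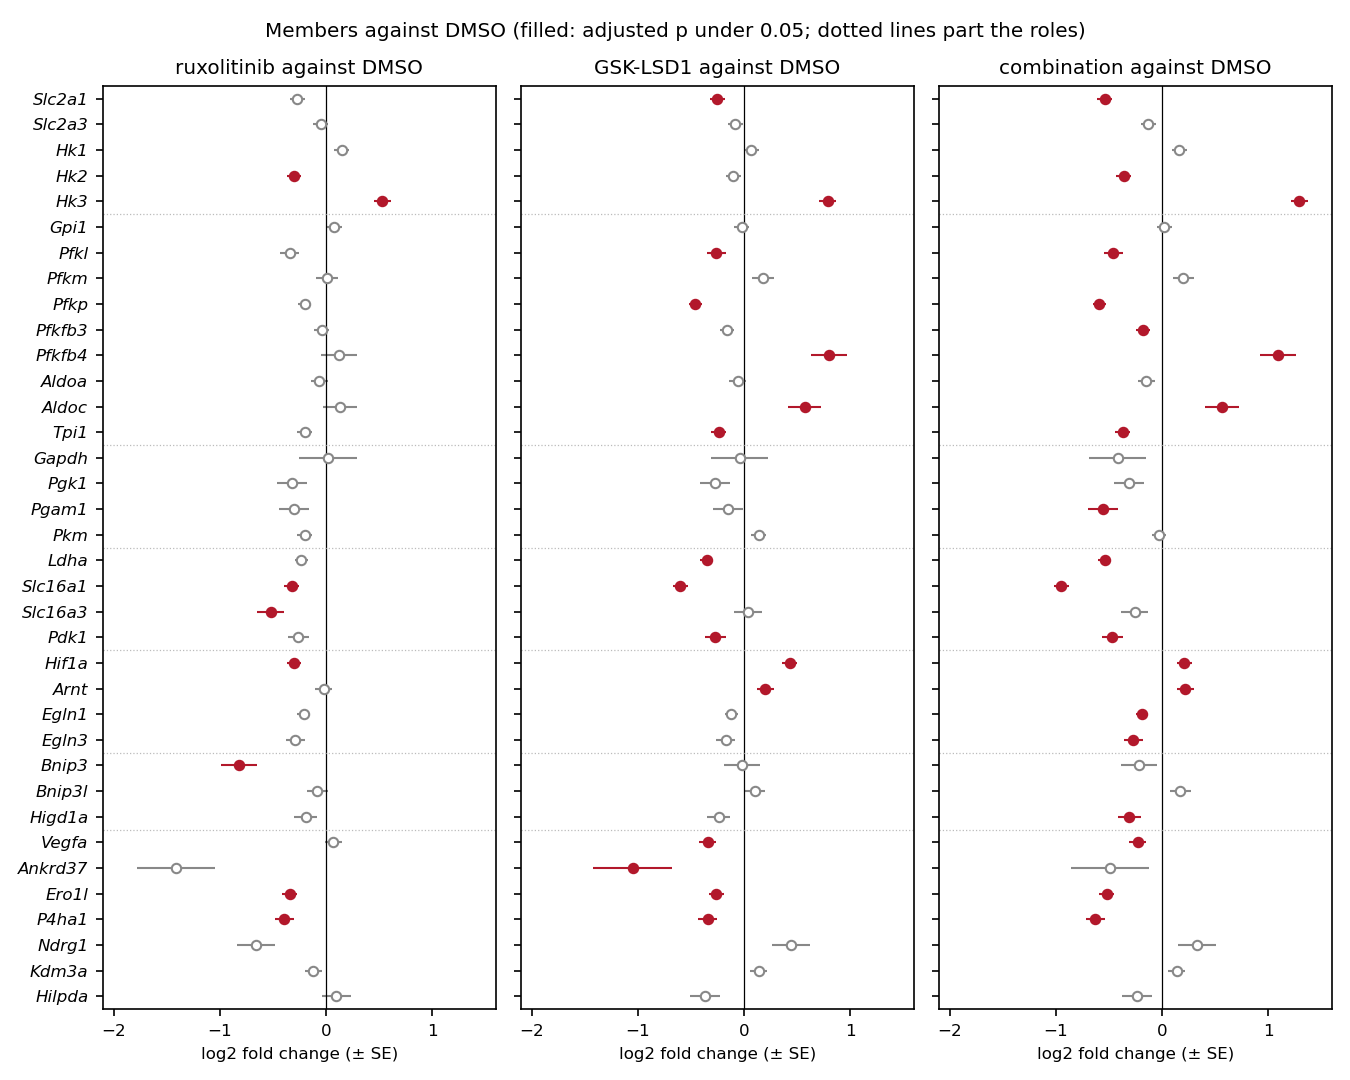
Log2 fold change against DMSO (x, bars are ± SE) of the 36 tested members (rows, ordered by role) after ruxolitinib, GSK-LSD1 and the combination, 3 libraries a group; filled points have an adjusted p under 0.05. Hk3 is on the higher side in the 3 panels (0.53, 0.79 and 1.29), and Slc16a1 is on the lower side (-0.32, -0.60 and -0.95).

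Promoters of 4 members are shown for their hypoxia motifs: Slc16a1 and Ldha, the carrier and the enzyme of lactate, which fell after the combination, and Hk3 and Pfkfb4, the members that rose most there. Each is a RefSeq window of GRCm38.p6 on the strand of the gene, from 250 bases before the start to 50 after it: chr3:104638414-104638713 (plus strand), chr7:46845554-46845853 (plus, the first of 2 Ldha windows), chr13:55021336-55021635 (minus) and chr9:108991652-108991951 (plus). Capitals mark ACGTG and GCGTG, the core of the hypoxia response element, on either strand. They also mark CACGTG, the E-box that MYC and related factors bind, which holds ACGTG on both strands.
Slc16a1: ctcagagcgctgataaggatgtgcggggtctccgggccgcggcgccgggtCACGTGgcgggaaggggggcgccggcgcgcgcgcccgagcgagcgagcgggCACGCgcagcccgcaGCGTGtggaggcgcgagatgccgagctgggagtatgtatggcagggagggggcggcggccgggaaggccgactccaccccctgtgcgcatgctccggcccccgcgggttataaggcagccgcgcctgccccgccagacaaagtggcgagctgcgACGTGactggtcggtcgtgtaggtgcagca
Ldha: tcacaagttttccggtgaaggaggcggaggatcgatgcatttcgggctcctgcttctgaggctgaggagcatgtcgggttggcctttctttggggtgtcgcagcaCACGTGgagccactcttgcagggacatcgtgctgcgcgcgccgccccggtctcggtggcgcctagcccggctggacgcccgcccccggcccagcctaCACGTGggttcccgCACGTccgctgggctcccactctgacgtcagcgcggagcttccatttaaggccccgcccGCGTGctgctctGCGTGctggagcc
Hk3: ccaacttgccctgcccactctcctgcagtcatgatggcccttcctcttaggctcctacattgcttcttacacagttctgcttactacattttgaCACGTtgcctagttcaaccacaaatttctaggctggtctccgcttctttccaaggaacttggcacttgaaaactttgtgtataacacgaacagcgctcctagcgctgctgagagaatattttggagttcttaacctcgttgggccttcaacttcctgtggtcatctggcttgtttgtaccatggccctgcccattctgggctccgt
Pfkfb4: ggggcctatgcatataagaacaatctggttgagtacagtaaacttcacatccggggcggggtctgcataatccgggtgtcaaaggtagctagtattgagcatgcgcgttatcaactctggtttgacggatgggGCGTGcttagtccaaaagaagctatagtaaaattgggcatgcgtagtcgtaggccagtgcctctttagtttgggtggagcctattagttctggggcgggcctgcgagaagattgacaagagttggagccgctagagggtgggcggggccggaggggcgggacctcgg

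The Slc16a1 window held ACGTG 3 times and GCGTG 2 times, with 1 E-box, and the Ldha window held ACGTG 5 times and GCGTG 2 times, with 2 E-boxes. In these numbers each E-box counts as ACGTG 2 times, 1 time on each strand. Hk3 had ACGTG 1 time and Pfkfb4 had GCGTG 1 time. These 4 windows were picked, and their difference in number was not tested. Counts of both motifs varied within each direction: of the lower members Tpi1 had 0 and Pfkp 4, and of the higher members Pfkfb4 had 1 and Hif1a 3. Windows were matched for 35 of the 39 members, not for Bnip3l, Ero1l, Ndrg1 and Slc2a3. ACGTG or GCGTG stood in 80.8% of the 52 member windows and in 43.8% of all 32851 windows, but member windows were also richer in G and C, with a median of 62.2% against 52.7%. At least 1 window held either motif in 14 of 15 matched members that were lower after the combination, in 5 of 5 that were higher and in 11 of 12 that did not pass. The motif was thus present in nearly all matched members, whatever their direction.

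The list held 5 genes for the entry and trapping of glucose. Slc2a1 (chromosome 4, 119108711 to 119137983, plus strand) encodes GLUT1, the main basal glucose carrier of blood cells. Its normalised read counts were 920, 993 and 1093 in DMSO, 769, 901 and 821 with ruxolitinib, 892, 845 and 781 with GSK-LSD1, and 672, 686 and 708 with the combination. The 4 groups formed a descending order in which ruxolitinib and GSK-LSD1 overlapped each other and neither overlapped DMSO or the combination. Slc2a1 fell by 0.25 ± 0.07 (log2, SE) with GSK-LSD1 and by 0.54 ± 0.07 with the combination (limma, adjusted p = 0.0129 and 7.3e-06), and its value with ruxolitinib was -0.27 ± 0.07 (adjusted p = 0.0686). Slc2a3, the gene of the high-affinity carrier GLUT3, had means between 702 and 769 and passed in none of the 3 comparisons with DMSO.

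The 3 hexokinase genes went in different directions. Hk3 (chromosome 13, 55005985 to 55021385, minus strand), an isozyme typical of myeloid cells, had 278, 256 and 272 in DMSO, 423, 402 and 346 with ruxolitinib, 473, 462 and 461 with GSK-LSD1, and 670, 607 and 702 with the combination. The 4 groups did not overlap, and each treatment lay above the one before. Hk3 rose by 0.53 ± 0.08 with ruxolitinib, by 0.79 ± 0.08 with GSK-LSD1 and by 1.29 ± 0.08 with the combination (log2 ± SE; limma, adjusted p = 0.00251, 2.75e-07 and 1.08e-10), a 2.45-fold rise in the last. Hk2 (chromosome 6, 82725025 to 82774454), the isozyme that HIF-1 and growth signals are known to induce, had 1560, 1620 and 1790 in DMSO, 1329, 1248 and 1459 with ruxolitinib, 1458, 1607 and 1554 with GSK-LSD1, and 1221, 1368 and 1274 with the combination. The ruxolitinib and combination libraries lay below DMSO, and GSK-LSD1 overlapped it. Hk2 fell by 0.30 ± 0.07 with ruxolitinib and by 0.36 ± 0.07 with the combination (limma, adjusted p = 0.0306 and 0.000266), and was at -0.10 ± 0.07 with GSK-LSD1. Hk1, the housekeeping isozyme, had a mean of 2938 ± 43.2 in DMSO and 3288 ± 309 with the combination (0.16 ± 0.07, adjusted p = 0.0652 by limma).

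**Figure D3:**
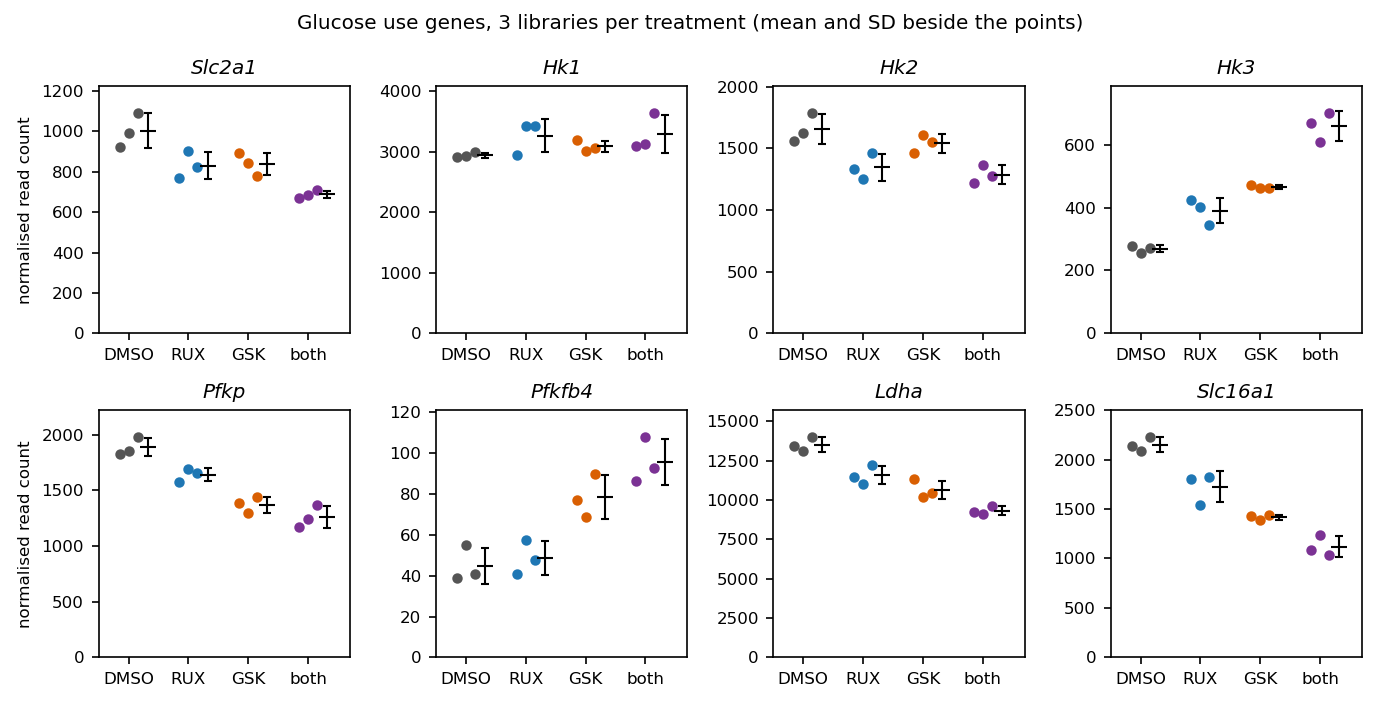
Normalised read counts (y) of 8 genes of glucose use in each of 3 libraries with DMSO, ruxolitinib (RUX), GSK-LSD1 (GSK) and the combination (both); the bar beside the points is mean ± SD. Hk3 and Pfkfb4 are highest with both drugs (660 and 95.4 on average), and Slc2a1, Pfkp, Ldha and Slc16a1 are lowest there.

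Of the 9 members of upper glycolysis 0 passed after ruxolitinib (3 had an unadjusted p under 0.05). With GSK-LSD1 2 were higher and 3 lower, and with the combination 2 were higher and 4 lower. These were 0%, 55.6% and 66.7% of the 9, against 1.63%, 32.5% and 42.3% of all genes. Phosphofructokinase, the committed step, is built from 3 kinds of subunit. Pfkp (chromosome 13, 6579768 to 6648777) had 1828, 1854 and 1982 in DMSO, 1575, 1688 and 1654 with ruxolitinib, 1381, 1295 and 1437 with GSK-LSD1, and 1167, 1243 and 1365 with the combination. All treated libraries lay below DMSO, and the GSK-LSD1 and combination groups overlapped each other. Pfkp fell by 0.46 ± 0.06 with GSK-LSD1 and by 0.59 ± 0.06 with the combination (limma, adjusted p = 1.41e-05 and 3.53e-07), where 17.1% of its windows are shared with Pitrm1 on the other strand. Pfkl, the liver-type subunit, had 1272, 1283 and 1515 in DMSO, 932, 1137 and 1146 with ruxolitinib, 1216, 1076 and 1099 with GSK-LSD1, and 908, 930 and 1133 with the combination. Its treated libraries lay below DMSO too, and it fell by 0.26 ± 0.09 with GSK-LSD1 and by 0.46 ± 0.09 with the combination (limma, adjusted p = 0.0333 and 0.000399). Pfkm, the muscle-type subunit, had means from 214 to 249 and did not pass.

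The PFKFB enzymes make and remove fructose 2,6-bisphosphate, the strongest activator of phosphofructokinase. Pfkfb4 (chromosome 9, 108991778 to 109032228, plus strand) was low, with 38.7, 55 and 40.6 in DMSO, 40.8, 57.5 and 47.4 with ruxolitinib, 76.9, 68.7 and 89.7 with GSK-LSD1, and 86.3, 108 and 92.5 with the combination. Both groups with GSK-LSD1 lay above both groups without it. Pfkfb4 rose by 0.80 ± 0.17 with GSK-LSD1 and by 1.09 ± 0.17 with the combination (limma, adjusted p = 0.0012 and 3.42e-05). Pfkfb3, the more abundant family member, had 1579, 1574 and 1513 in DMSO, 1613, 1356 and 1574 with ruxolitinib, 1323, 1385 and 1461 with GSK-LSD1, and 1328, 1400 and 1396 with the combination. It fell by 0.18 ± 0.07 with the combination (limma, adjusted p = 0.0332), the other direction from Pfkfb4. This Pfkfb3 call was lost without DMSO replicate 1 or 2, and without combination replicate 1 or 2.

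Aldolase splits the sugar and triose phosphate isomerase interconverts the products. Aldoc, a minor aldolase here, had 73.5, 57 and 82.2 in DMSO, 64.7, 76 and 92.9 with ruxolitinib, 119, 93.6 and 102 with GSK-LSD1, and 95.2, 107 and 110 with the combination. The groups with GSK-LSD1 lay above the others, and Aldoc rose by 0.57 ± 0.16 with GSK-LSD1 and by 0.56 ± 0.16 with the combination (limma, adjusted p = 0.00878 and 0.00681). Tpi1 had 4667, 4000 and 4695 in DMSO, 3428, 4317 and 3890 with ruxolitinib, 3923, 3715 and 3671 with GSK-LSD1, and 3386, 3314 and 3623 with the combination. It fell by 0.24 ± 0.07 with GSK-LSD1 and by 0.37 ± 0.07 with the combination (limma, adjusted p = 0.0189 and 0.000444). The main aldolase gene Aldoa (means 10408 to 11571) and the glucose phosphate isomerase gene Gpi1 (4513 to 4816) did not pass in the 3 comparisons with DMSO.

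Of the 4 tested members of lower glycolysis, 1 passed in 1 comparison with DMSO, after the combination (25%, against 42.3% of all genes). The count was 0 after ruxolitinib and after GSK-LSD1, where 1.63% and 32.5% of all genes passed. Pgam1, a phosphoglycerate mutase gene, had 103, 97 and 97 in DMSO, 84.6, 75 and 81 with ruxolitinib, 74.9, 102 and 92.7 with GSK-LSD1, and 73.4, 71 and 57.7 with the combination. The combination lay below DMSO, and Pgam1 fell by 0.56 ± 0.14 there (limma, adjusted p = 0.00321), with the limit that 41.5% of its windows are found in other genes. Pkm, which encodes the pyruvate kinase of these cells, had means of 7111 in DMSO, 6176 with ruxolitinib, 7800 with GSK-LSD1 and 6934 with the combination and did not pass. Pgk1, phosphoglycerate kinase, had means of 162 to 205, and Gapdh of 28.4 to 40.3, and neither passed.

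Among the genes that decide the fate of pyruvate and lactate, Ldha (chromosome 7, 46841475 to 46855627, plus strand) had 13460, 13087 and 14036 in DMSO, 11484, 11047 and 12194 with ruxolitinib, 11314, 10208 and 10417 with GSK-LSD1, and 9254, 9119 and 9628 with the combination. Every treated library lay below every DMSO library, and the combination lay below both single drugs. Ldha fell by 0.35 ± 0.06 with GSK-LSD1 and by 0.54 ± 0.06 with the combination (limma, adjusted p = 0.00012 and 3.18e-07). With ruxolitinib its value was -0.23 ± 0.06, just short of passing at an adjusted p of 0.0528 by limma.

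Slc16a1 (chromosome 3, 104638668 to 104658462, plus strand), which encodes the lactate carrier MCT1, changed most among the members that fell after the combination. Its counts were 2135, 2083 and 2233 in DMSO, 1800, 1544 and 1828 with ruxolitinib, 1428, 1390 and 1437 with GSK-LSD1, and 1085, 1238 and 1031 with the combination. The 4 groups did not overlap. The mean went from 2150 ± 76.4 (SD, n = 3) in DMSO to 1118 ± 107 with the combination. Slc16a1 fell by 0.32 ± 0.07, 0.60 ± 0.07 and 0.95 ± 0.07 (log2 ± SE) with ruxolitinib, GSK-LSD1 and the combination (limma, adjusted p = 0.0241, 1.79e-06 and 1.25e-09).

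Slc16a3, the gene of MCT4, a lactate exporter known as a HIF-1 target, showed another pattern, with 673, 587 and 786 in DMSO, 382, 502 and 543 with ruxolitinib, 772, 645 and 682 with GSK-LSD1, and 564, 473 and 677 with the combination. Only the ruxolitinib libraries lay wholly below DMSO. Slc16a3 fell by 0.52 ± 0.13 with ruxolitinib (limma, adjusted p = 0.0369). Pdk1, a kinase that keeps pyruvate out of the mitochondrial citric acid cycle, had 421, 365 and 457 in DMSO, 328, 300 and 411 with ruxolitinib, 351, 331 and 343 with GSK-LSD1, and 282, 293 and 322 with the combination. It fell by 0.27 ± 0.10 with GSK-LSD1 and by 0.47 ± 0.10 with the combination (limma, adjusted p = 0.0487 and 0.00105).

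In the HIF system, Hif1a (chromosome 12, 73901375 to 73947530, plus strand), the oxygen-regulated subunit, went in opposite directions with the single drugs. It had 8182, 8096 and 8059 in DMSO, 6707, 6134 and 6984 with ruxolitinib, 10652, 10844 and 11274 with GSK-LSD1, and 10205, 9654 and 8309 with the combination. The ruxolitinib libraries lay below DMSO, and the GSK-LSD1 and combination libraries lay above it and did not overlap each other. Hif1a fell by 0.30 ± 0.07 with ruxolitinib and rose by 0.43 ± 0.07 with GSK-LSD1 and by 0.21 ± 0.07 with the combination (limma, adjusted p = 0.027, 5.52e-05 and 0.0182).

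Arnt, the constant partner of HIF1A, had 470, 435 and 461 in DMSO, 424, 480 and 444 with ruxolitinib, 490, 560 and 523 with GSK-LSD1, and 562, 506 and 521 with the combination. It rose by 0.20 ± 0.08 with GSK-LSD1 and by 0.22 ± 0.08 with the combination (limma, adjusted p = 0.0463 and 0.025). Egln1, the main prolyl hydroxylase gene, had 885, 856 and 952 in DMSO, 787, 774 and 773 with ruxolitinib, 866, 813 and 803 with GSK-LSD1, and 785, 811 and 758 with the combination. Egln3, itself a HIF-1 target, had 663, 621 and 781, then 527, 532 and 627, then 631, 575 and 617, then 581, 534 and 591 in the same order. After the combination Egln1 fell by 0.19 ± 0.06 and Egln3 by 0.27 ± 0.09 (limma, adjusted p = 0.0168 and 0.0146). The combination calls of Hif1a, Arnt, Egln1 and Egln3 all rested on DMSO replicate 3, without which their adjusted p ran from 0.0508 to 0.129 (limma). Egln2, the hydroxylase gene outside the member list, was at -0.00 ± 0.08 after the combination (limma, adjusted p = 0.985).

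Among the hypoxia targets, Ero1l (chromosome 14, 45283087 to 45318771), an oxidase that forms disulphide bonds in the endoplasmic reticulum, had 5254, 5511 and 5738 in DMSO, 4594, 3892 and 4603 with ruxolitinib, 4473, 4617 and 4671 with GSK-LSD1, and 4026, 3945 and 3515 with the combination. P4ha1 (chromosome 10, 59323296 to 59373304), a collagen prolyl hydroxylase subunit, had 434, 449 and 540, then 353, 334 and 396, then 384, 363 and 373, then 300, 335 and 280. Both lay below DMSO in every treated library. Ero1l fell by 0.34 ± 0.07, 0.26 ± 0.07 and 0.52 ± 0.07, and P4ha1 by 0.39 ± 0.09, 0.34 ± 0.09 and 0.63 ± 0.09, with ruxolitinib, GSK-LSD1 and the combination (log2 ± SE). All 6 values passed by limma, with adjusted p between 2.64e-06 (Ero1l, combination) and 0.0346 (P4ha1, ruxolitinib).

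Vegfa, the angiogenic growth factor, had 444, 478 and 435 in DMSO, 479, 473 and 469 with ruxolitinib, 364, 338 and 369 with GSK-LSD1, and 435, 369 and 352 with the combination. It fell by 0.34 ± 0.08 with GSK-LSD1, whose libraries lay below DMSO, and by 0.23 ± 0.08 with the combination, whose highest library reached the lowest DMSO value (limma, adjusted p = 0.00294 and 0.0247). Higd1a, a mitochondrial protein of the hypoxia response, had 199, 187 and 159 in DMSO, 165, 149 and 161 with ruxolitinib, 158, 139 and 164 with GSK-LSD1, and 146, 156 and 136 with the combination, and fell by 0.31 ± 0.11 in the last (limma, adjusted p = 0.0272), with 36.6% of its windows shared.

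Bnip3 and Ndrg1 were lower with ruxolitinib alone than in the other groups. Bnip3, a receptor that directs mitochondria to autophagy, had 103, 88 and 106 in DMSO, 47.8, 50.3 and 71.1 with ruxolitinib, 121, 92.6 and 82.8 with GSK-LSD1, and 90.3, 74 and 90.5 with the combination. It fell by 0.82 ± 0.17 with ruxolitinib (limma, adjusted p = 0.0148) and was at -0.02 ± 0.17 with GSK-LSD1. The limit here is that 62.5% of its windows are found in other genes. Ndrg1, a widely used hypoxia marker, had 70.5, 49 and 79.2 in DMSO, 37.8, 37 and 48.4 with ruxolitinib, 88.9, 79.6 and 98.7 with GSK-LSD1, and 76.4, 75 and 96.5 with the combination. Its ruxolitinib libraries lay below the others, at -0.66 ± 0.18 against DMSO (limma, adjusted p = 0.0631).

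Ankrd37, an ankyrin repeat gene known as a HIF-1 target and the lowest tested member, had 21.8, 19 and 26.7 in DMSO, 2.98, 11.3 and 12.8 with ruxolitinib, 9.99, 10.9 and 9.97 with GSK-LSD1, and 19.8, 12.8 and 14.9 with the combination. It fell by 1.05 ± 0.37 with GSK-LSD1 (limma, adjusted p = 0.0364) and was at -1.41 ± 0.37 with ruxolitinib (adjusted p = 0.0585). The histone demethylase gene Kdm3a, with 548, 507 and 592 in DMSO, 483, 464 and 566 with ruxolitinib, 586, 635 and 591 with GSK-LSD1, and 601, 608 and 600 with the combination, passed in none of the 3 comparisons with DMSO. Nor did Bnip3l, another mitophagy receptor (means 546 to 642), or Hilpda, a lipid droplet protein (means 87.4 to 122).

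**Figure D4:**
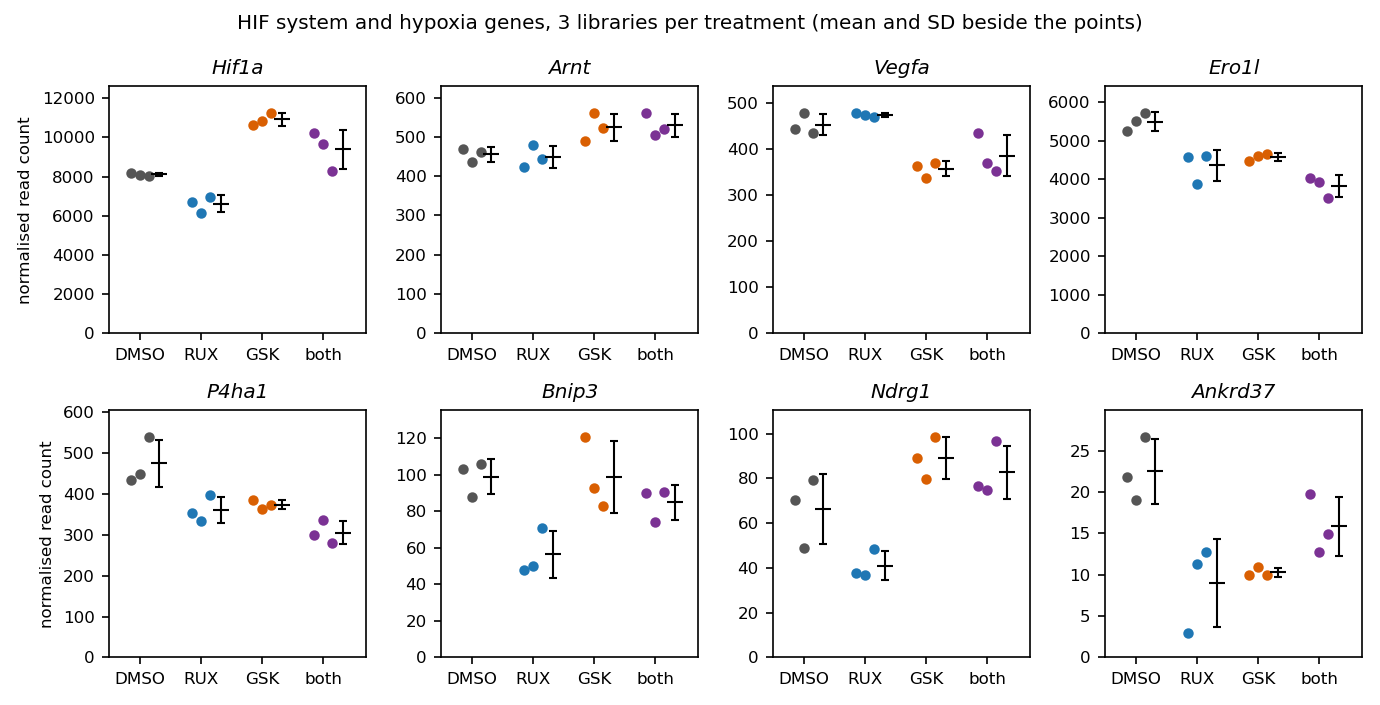
Normalised read counts (y) of 8 genes of the HIF system and hypoxia response in each of 3 libraries with DMSO, ruxolitinib (RUX), GSK-LSD1 (GSK) and the combination (both); the bar beside the points is mean ± SD. Hif1a is lowest with ruxolitinib (6609 on average) and highest with GSK-LSD1 (10923), Ero1l and P4ha1 are lowest with both drugs, and Bnip3 and Ndrg1 are lowest with ruxolitinib alone.

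The ruxolitinib calls rested on few libraries. Hk3 was the only member of the 8 that passed with any 1 library left out. The count of lower members was 0 without DMSO replicate 3 or without ruxolitinib replicate 2, 1 without DMSO replicate 1, 3 without DMSO replicate 2 or ruxolitinib replicate 1 and 4 without GSK-LSD1 replicate 3. It was 13 without ruxolitinib replicate 3, 15 without combination replicate 3, and 14 without ruxolitinib replicate 2 and combination replicate 3 together, where Slc2a1, Pfkl, Pfkp, Tpi1, Pkm, Ldha and Ankrd37 passed too. The lower members lost this way then had adjusted p between 0.0517 and 0.204 by limma, and none changed sign. Across all genes, the log2 fold change after ruxolitinib also moved with the G and C content of the transcript (Spearman rho 0.431 over 11036 genes, which are not independent replicates). Against DMSO, rho was 0.105 for GSK-LSD1 and 0.207 for the combination. For the combination it was -0.00241 against ruxolitinib and 0.278 against GSK-LSD1, and for the interaction it was -0.202. The 7 lower members had a median G and C content of 44.3%, beside 52.7% for the 36 tested members. With the relation after ruxolitinib removed, these 7 still passed and the count was 16. The shares of all genes called with libraries left out or with this correction were not set beside these counts. A higher or lower count may therefore not be particular to the members. The correction was made in each library and also changes the spread between libraries. A call that is kept therefore does not show that the fold change stayed the same.

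After GSK-LSD1, 8 of the 16 members passed with any 1 library left out: Hk3, Pfkfb4 and Hif1a on the higher side, and Pfkp, Ldha, Slc16a1, Vegfa and Ero1l on the lower side. The lower count was 6 without DMSO replicate 3 or GSK-LSD1 replicate 3 and 7 without GSK-LSD1 replicate 2, and the higher count was 3 without DMSO replicate 2. DMSO replicate 3 decided 7 calls (Slc2a1, Pfkl, Tpi1, Pdk1, Arnt, Ankrd37 and P4ha1), which had adjusted p of 0.0765 to 0.226 without it (limma), and Aldoc was lost without DMSO replicate 2 or GSK-LSD1 replicate 1. After the combination, 13 of the 21 members passed with any 1 library left out, 2 higher (Hk3 and Pfkfb4) and 11 lower (Slc2a1, Hk2, Pfkl, Pfkp, Tpi1, Pgam1, Ldha, Slc16a1, Pdk1, Ero1l and P4ha1). The higher count was 2 without DMSO replicate 2 and 3 without DMSO replicate 3, and Hif1a and Arnt were lost in both cases. Egln1 and Egln3 were lost as well without DMSO replicate 3. Hif1a was also lost without combination replicate 1 or 2, and its adjusted p ranged from 1.28e-06 to 0.119 over all alternatives (limma). Without ruxolitinib replicate 2 and combination replicate 3 together, Higd1a and Vegfa did not pass (limma, adjusted p from 0.0665 to 0.0748), while Aldoa, Bnip3l, Hilpda and Slc16a3 passed. Leaving out both libraries also let Hilpda, Ndrg1, Pfkfb3 and Pkm pass after GSK-LSD1, with no call lost there.

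Adding GSK-LSD1 to ruxolitinib was the comparison of the combination with ruxolitinib alone. It left 8 of the 36 members higher and 6 lower (38.9% in all), against 16.0% and 15.6% of all genes (31.6% in all). The lower share was near the background. Higher were Hk3, Pfkfb4, Aldoc, Hif1a, Arnt, Bnip3, Ndrg1 and Kdm3a, with log2 differences from 0.24 (Arnt) to 0.99 ± 0.18 (Ndrg1, adjusted p = 0.00021 by limma). Hif1a rose by 0.50 ± 0.07 and Bnip3 by 0.60 ± 0.17 in this comparison (limma, adjusted p = 7.3e-06 and 0.00922). Lower were Slc2a1, Pfkp, Ldha, Slc16a1, Vegfa and Ero1l, with Slc16a1 at -0.62 ± 0.07 (limma, adjusted p = 8.6e-07) and Ero1l at -0.19 ± 0.07 with overlapping groups. The higher count was 5 without ruxolitinib replicate 1, where Aldoc, Arnt, Bnip3 and Kdm3a were lost. Ero1l was lost without any 1 of 7 libraries. Without ruxolitinib replicate 2 and combination replicate 3 together, Aldoc and Bnip3 did not pass (limma, adjusted p from 0.0543 to 0.13), while Ankrd37, Hilpda, Pdk1 and Pfkfb3 passed.

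Adding ruxolitinib to GSK-LSD1 was the comparison of the combination with GSK-LSD1 alone. It left 1 of the 36 members higher and 1 lower (5.56% in all), against 1.05% and 0.348% of all genes (1.40% in all). Hk3 rose by 0.50 ± 0.08 and Slc16a1 fell by 0.35 ± 0.07 (limma, adjusted p = 0.00129 and 0.0104). The Slc16a1 call was lost without GSK-LSD1 replicate 1 or 3, while the lower count was 4 without ruxolitinib replicate 2, 2 without ruxolitinib replicate 3, and 7 without ruxolitinib replicate 2 and combination replicate 3 together, where Slc2a1, Hk2, Pfkl, Ldha, Slc16a3 and Ero1l passed too. Hk3 passed with any 1 library left out.

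The interaction asked whether the effect of 1 drug on a member differed in the presence of the other. None of the 36 members passed by limma, and 3 had an unadjusted p under 0.05, while 1 of the 11484 genes tested passed (0.00871%) and 534 had an unadjusted p under 0.05. The 3 members were Ankrd37 (interaction 1.96 ± 0.53 on the log2 scale, adjusted p = 0.659), Bnip3 (0.62 ± 0.24, adjusted p = 0.998) and Ndrg1 (0.55 ± 0.25, adjusted p = 1). For Hk3 and Slc16a1 the effect of ruxolitinib was close with and without GSK-LSD1, at 0.53 and 0.50 for Hk3 and at -0.32 and -0.35 for Slc16a1. The effect of ruxolitinib on Bnip3 was -0.82 alone and -0.20 in the presence of GSK-LSD1, and this difference did not pass.

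**Figure D5:**
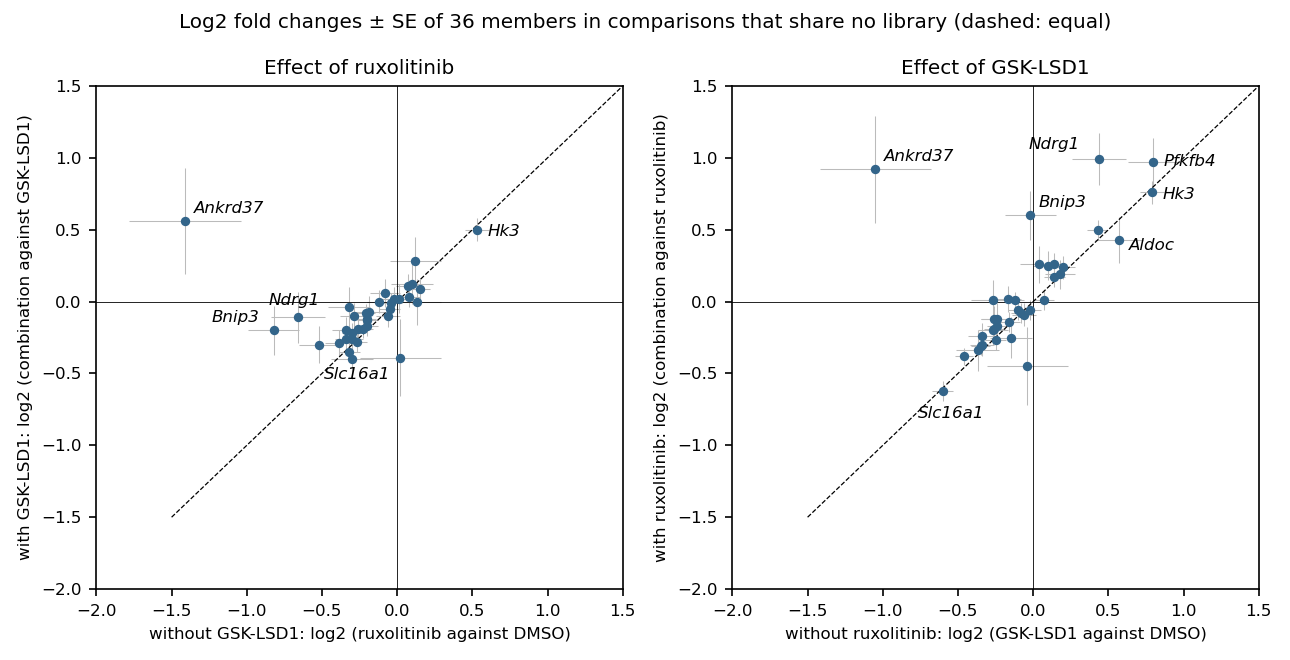
Log2 fold change of 36 members for ruxolitinib (left) and GSK-LSD1 (right) in the absence (x) and in the presence (y) of the other drug, bars are ± SE and the dashed line marks equal effects. The 2 axes of a panel use different libraries. Hk3 and Slc16a1 lie on the line, and Ankrd37 lies far above it. The vertical distance of a gene from the line is its interaction, so it is the same value in both panels.

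The 2 axes of each panel share no library, so they can be set side by side. Over 36 members, the effects of GSK-LSD1 without and with ruxolitinib had Pearson's r of 0.57 and Spearman's rho of 0.728, and 11 members passed in both in the same direction, 68.8% of the 16 and 78.6% of the 14. The effects of ruxolitinib without and with GSK-LSD1 had r of 0.152 and rho of 0.614, and Hk3 and Slc16a1 passed in both, 25% of the 8 and 100% of the 2. Of all genes, 32.5% and 31.6% passed in the 2 comparisons for GSK-LSD1, and 1.63% and 1.40% in the 2 for ruxolitinib. The overlap over all genes was not counted, so whether these overlaps are particular to the members is not known. These are descriptions across genes of the same libraries, which are not independent replicates.

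Other genes of the pathway were followed in 5 lists, whose shares called are to be read against the 1.63%, 32.5% and 42.3% of all genes called after ruxolitinib, GSK-LSD1 and the combination. Among other glucose use genes 24 of 32 were tested, and 1 was higher and 0 lower after ruxolitinib, 6 and 4 after GSK-LSD1, and 5 and 6 after the combination. These were 4.17%, 41.7% and 45.8% of those tested, the last 2 near the background. Fbp1, which encodes fructose 1,6-bisphosphatase, the gluconeogenic enzyme that opposes phosphofructokinase, went from 16.3 ± 5.2 (SD, n = 3) in DMSO to 58.5 ± 4.03 with GSK-LSD1 and 80.2 ± 20.5 with the combination, and rose by 1.83 ± 0.23 and 2.24 ± 0.23 on the log2 scale (limma, adjusted p = 4.87e-06 and 1.72e-07). Pdk2, a kinase of the same function as Pdk1, rose by 0.85 ± 0.21, 1.18 ± 0.21 and 1.40 ± 0.21 with ruxolitinib, GSK-LSD1 and the combination (limma, adjusted p = 0.0386, 0.000183 and 1.49e-05), from 17.9 ± 3.08 in DMSO to 48.9 ± 7.49 with the combination. The directions of Pdk2 and Pdk1 were thus opposite with GSK-LSD1 and with the combination.

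Among 11 genes of the pentose phosphate pathway and neighbouring steps 0 passed after ruxolitinib (3 had an unadjusted p under 0.05). After GSK-LSD1 4 were lower, and after the combination 2 were higher and 4 lower (36.4% and 54.5% called, against 32.5% and 42.3% of all genes). Those that fell included Rpia, which makes ribose 5-phosphate (-0.55 ± 0.07 and -0.53 ± 0.07), and Prps1 and Prps2, which turn it into the precursor of nucleotides (-0.37 ± 0.07 and -0.56 ± 0.07 for Prps1, -0.41 ± 0.08 and -0.51 ± 0.08 for Prps2). G6pdx, the entry enzyme of the pathway, rose by 0.28 ± 0.07 with the combination (limma, adjusted p = 0.00241). Of 20 genes of the citric acid cycle and neighbouring steps 0 passed after ruxolitinib (3 at an unadjusted p under 0.05). After GSK-LSD1 1 was higher and 7 lower, and after the combination 2 were higher and 11 lower (40% and 65% called, against 32.5% and 42.3% of all genes). Idh3a, the catalytic subunit of the mitochondrial isocitrate dehydrogenase, fell by 0.46 ± 0.06 and 0.58 ± 0.06, while Mdh1, the cytosolic malate dehydrogenase, rose by 0.37 ± 0.07 and 0.40 ± 0.07 (limma, adjusted p from 1.81e-07 to 0.000294).

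Among other hypoxia response genes 32 of 40 were tested, and 0 were higher and 1 lower after ruxolitinib, 5 and 6 after GSK-LSD1, and 7 and 8 after the combination. These were 3.12%, 34.4% and 46.9% of those tested, near the background with GSK-LSD1 and the combination. The lower gene after ruxolitinib was Plod2, a collagen lysyl hydroxylase (-0.46 ± 0.09, adjusted p = 0.0128 by limma). Epas1, which encodes the HIF-2 alpha subunit, went from 48.0 ± 7.23 in DMSO to 161 ± 16 with GSK-LSD1 and 168 ± 16.1 with the combination, a rise of 1.73 ± 0.17 and 1.79 ± 0.17 (limma, adjusted p = 7.82e-08 and 2.78e-08). The cyclin gene Ccng2 rose by 0.98 ± 0.10 and 1.07 ± 0.10 in the same comparisons (limma, adjusted p = 1.78e-07 and 3.03e-08). Car12, a carbonic anhydrase, fell by 0.73 ± 0.08 with the combination, and the haem oxygenase gene Hmox1 rose by 0.67 ± 0.07 (limma, adjusted p = 4.19e-07 and 3.58e-07). Of 20 sensors and upstream regulators of glucose use 0 passed after ruxolitinib (1 at an unadjusted p under 0.05), 4 were higher and 3 lower after GSK-LSD1, and 4 higher and 2 lower after the combination (35% and 30% called, against 32.5% and 42.3% of all genes). Myc, a transcriptional activator of many glycolysis genes, had means of 5527 ± 123 in DMSO, 5652 ± 587 with ruxolitinib, 4332 ± 141 with GSK-LSD1 and 4451 ± 407 with the combination. It fell by 0.35 ± 0.07 and 0.32 ± 0.07 in the last 2 (limma, adjusted p = 0.000634 and 0.00106). Txnip, a brake on glucose uptake, rose by 0.29 ± 0.06 and 0.33 ± 0.06 in the same comparisons (limma, adjusted p = 0.00138 and 0.000258).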

How the data were processed

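RNA of 12 libraries was sequenced, 3 for each of 4 treatments. The authors deposited a table of normalised signal: gene read counts divided by a factor per library, with 1e-05 added to every value, as far as the values show. Per the submitters' processing notes, STAR and DESeq2 and the builds mm10 and GRCm38 were used; the counting program, the annotation, strandedness and the treatment of reads that match several genes are not given in the sources used here. After the constant was removed, all values of a library lay within 0.01 of whole multiples of a step, which ran from 0.9865 to 1.027.

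For 11484 genes with a mean of at least 10, treatment means were modelled on log2(value + 1) with limma 3.58.1 (R 4.3.3), a variance trend and 8 residual degrees of freedom. Fold changes are on this scale and understate changes of low genes. Benjamini-Hochberg adjustment covered every gene tested, and an adjusted p under 0.05 passed. The code was tested on simulated data. Members and lists were chosen with earlier results of these data known. Library values were printed for members that passed and for 6 defining genes, and genes named from the other lists were among the 4 with the smallest adjusted p of their list in a comparison, except Egln2, added after its values were seen; Myc, Kdm1a, Jak1 and Jak2 were named whatever their values. Alternatives covered the pseudocount, the minimum, scaling, a replicate block, G and C content, the variance model, the libraries included and shared sequence. Positions are from GENCODE vM21 (GRCm38).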

Additional observations from a re-analysis of the deposited data

Results flagged for a closer look

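Ankrd37 drew attention because its ruxolitinib libraries lay on opposite sides of their reference groups without and with GSK-LSD1, although neither effect passed by limma (-1.41 ± 0.37, adjusted p = 0.0585, and 0.56 ± 0.37, adjusted p = 0.577). All 3 ruxolitinib libraries (2.98, 11.3 and 12.8) lay below all 3 DMSO libraries (21.8, 19 and 26.7), and all 3 combination libraries (19.8, 12.8 and 14.9) lay above all 3 GSK-LSD1 libraries (9.99, 10.9 and 9.97). The difference between both effects was 1.96 ± 0.53 (SE) on the log2 scale, and it did not pass over all genes (limma, adjusted p = 0.659). It is the lowest of the tested members and overlaps Lrp2bp and Ufsp2 on the other strand, with 11.4% of its windows shared.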

How the results depend on the processing

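No value of the 61 that passed changed sign in 1463 comparisons under the alternatives, and of the values that did not pass 150 of 3673 changed sign, none of them past the test. Lower members after ruxolitinib numbered 7 in the fit described above, 2 with no minimum, 16 with correction for G and C content, 15 with the replicate block and that correction, 0 without a variance trend and with robust moderation, and 14 without ruxolitinib replicate 2 and combination replicate 3 together. They ranged from 0 to 15 with 1 library left out. Lower members after GSK-LSD1 numbered 7, in place of 11, without the trend, and 6 to 13 with 1 library left out; higher members numbered 3 to 6. Higher members after the combination numbered 8, in place of 5, with the block and the correction, and 2 to 6 with 1 library left out. For the combination against ruxolitinib, higher members numbered 5 to 12 with 1 library left out, in place of 8. For the combination against GSK-LSD1, lower members numbered 5 with the correction, 7 with the block and the correction, 0 without the trend, 7 without the 2 libraries together, 2 with only the groups compared and 0 to 4 with 1 library left out, in place of 1. The cause was not tested, and the shares of all genes called under these alternatives were not set beside the counts. The other counts stayed within 1.5 times under each alternative, also among the 23 members with at most 10% of shared windows, an alternative chosen after seeing the data; the interaction was not fitted on the groups compared, since it uses all 4.

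The replicate block alone gave 5 lower members after ruxolitinib and 5 lower members for the combination against ruxolitinib, in place of 6. The replicate numbers did not pair the libraries: over 18 pairs the correlation of deviations ran from -0.148 to 0.15, and 4 of 12 libraries correlated best with their own number. With 3 libraries a group, small changes of low genes such as Ankrd37 and Pfkfb4 are measured with larger errors than those of abundant genes.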
